A study of Homo sapiens with 4 samples.

Results

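The genes that encode the subunits, activators, inhibitor and assembly factors of the proteasome were followed in HepG2 and A549 cells with and without GSK343, an inhibitor of the histone methyltransferase EZH2. Members were the probes that name 1 gene alone whose symbol starts with PSM, carries a class letter from A to G and ends in a number. This rule gave 67 probes for 48 genes, out of 24740 probes naming 1 gene and 18365 such genes, and used no measured value. The classes held 8 PSMA, 11 PSMB, 6 PSMC, 14 PSMD, 4 PSME, 1 PSMF and 4 PSMG genes. HepG2 is an established human liver cancer line and A549 an established human lung cancer line. Each was kept in DMEM with serum for 6 h, either as control or with 10 μM GSK343, and the vehicle given to the controls is not stated in the sources used here. Total RNA of each culture was labelled with Cy5 and hybridised to Human OneArray Plus, with 1 array for each of the 4 conditions. A single array has no replicate, so a difference between 2 arrays below is a description without a test, and nothing in the labels separates the treatment from the culture or the hybridisation. Because each array holds the RNA of a whole culture, fewer expressing cells and less RNA per cell cannot be told apart.

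The proteasome degrades proteins that carry ubiquitin chains and so supplies cells with peptides and amino acids. Its core particle is a stack of rings, with outer rings of alpha subunits that gate the entry and inner rings of beta subunits, some of which hold the cutting sites. A regulatory particle of ATPases and non-ATPase subunits binds, unfolds and feeds in the substrate. In cells exposed to interferon, PSMB8, PSMB9 and PSMB10 can replace the constitutive cutting subunits PSMB5, PSMB6 and PSMB7 to form the immunoproteasome, which yields peptides for MHC class I.

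The arrays were of like brightness, with medians between 449.8 and 498.8 intensity units. No member was at 0 or below on any array, and 62 or 63 of the 67 member probes were at or above the array median. The median member probe stood at percentile 94.1 to 95.1 of all spots. The members below the array median were PSMA8, a core subunit of germ cells, at 12.5 to 16.6, PSMB11, the core subunit of the thymus, at 27.4 to 33.1, and PSMD9, at 74.4 to 222, beside PSMB10 and the dimmer probes of PSMG3, PSMA5 and PSME4 on some arrays. The liver label of HepG2 was met by its markers, all 7 of which with a probe were at least 1 log2 unit lower in A549, as for albumin (ALB) at 184685 and 188461 in HepG2 against 54.1 and 53.8 in A549. For A549 the epithelial keratin KRT7 was at 56123 and 54671, against 23.0 and 31.0 in HepG2, whereas the other 5 of 6 lung markers, surfactant genes and NKX2-1 among them, were below the array median in A549 too. Of 4 blood cell markers, the pan-leukocyte gene PTPRC was at 17.3 to 39.4 and CD14 was above the median on every array.

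**Figure D1:**
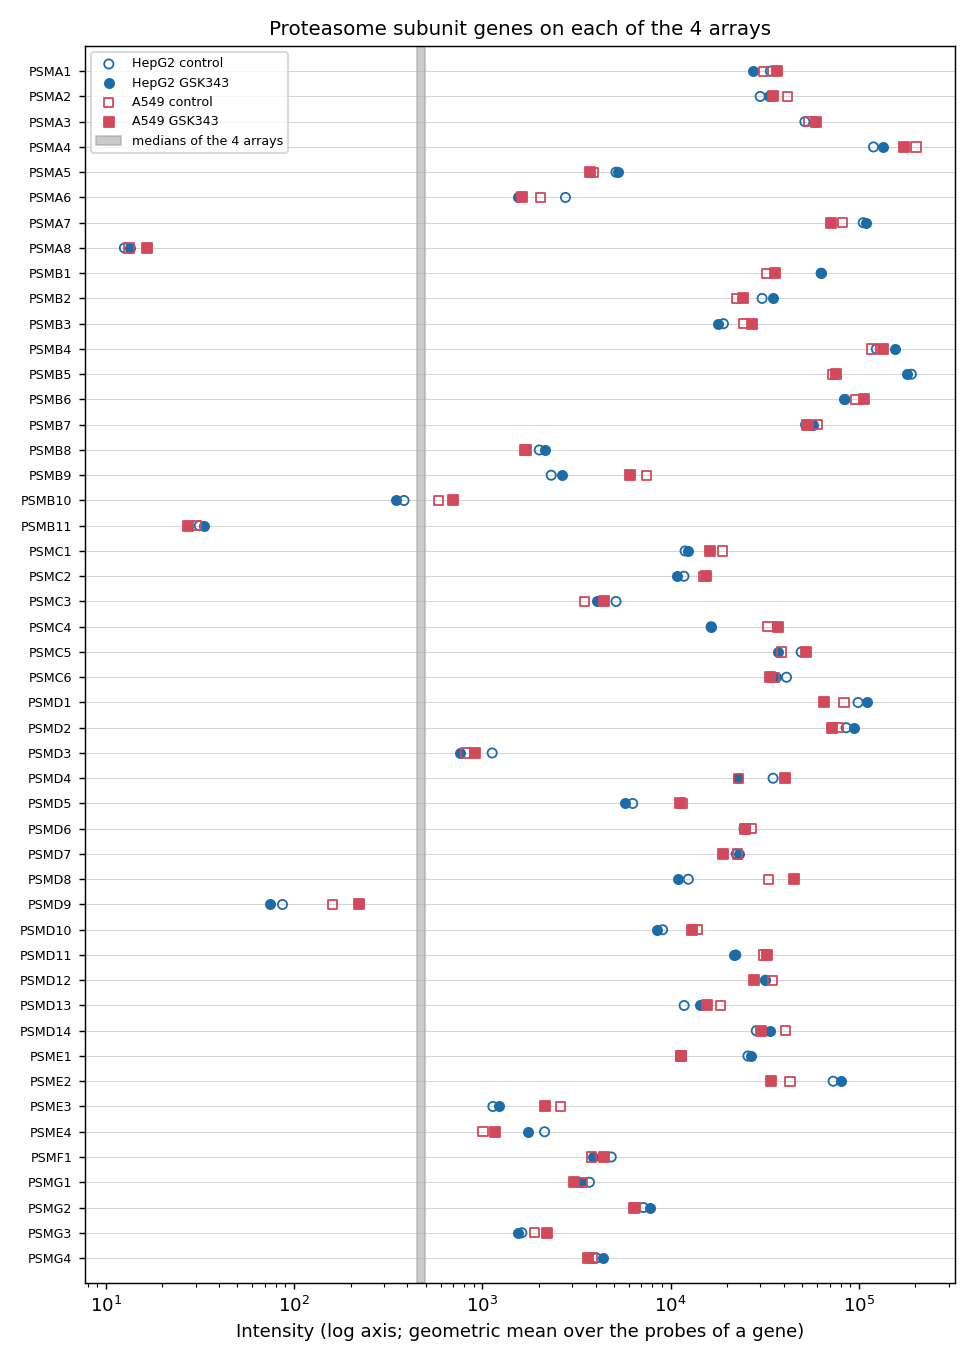
Intensity of each proteasome gene (log10 axis, intensity units, mean over its probes on the log scale) on the 4 arrays, ordered by class. The 4 points of most genes lie close together, PSMB5 and PSME1 sit lower and PSMB9 and PSMD8 higher in A549 than in HepG2, and PSMA8 and PSMB11 lie near the floor; levels of different genes come from different probes and are not compared.

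After GSK343 the proteasome genes as a set showed little difference from control. In HepG2 the median log2 difference over the 48 genes was 0.01, with -0.02 over all genes, and the members ran from -0.83 to 0.32. In A549 the median was -0.02, with 0.04 over all genes, and the range was -0.43 to 0.82. A difference of 0.5 log2 units or more was taken as the size of interest, against a spread between probes of the same member gene of 0.23 in HepG2 and 0.41 in A549 (SD over 21 probe pairs). Of the 48 genes, 45 were within 0.5 in both lines, and 0 differed by 1 or more in either.

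In HepG2, 3 of 48 members were lower by 0.5 or more and 0 of 48 were higher. Among all 18322 genes with a value, 7.22% were lower and 3.03% higher by that size, and among the genes at least as bright as the array median the shares were 5.23% and 2.56%, beside 3 of 44 and 0 of 44 members. The share of members was thus near that of all genes. In A549, 1 of 48 members was higher and 0 of 48 were lower, against 7.83% and 4.24% of all genes. Among the brighter genes these shares were 7.70% and 3.32%, beside 1 of 45 and 0 of 45 members.

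PSMA6, an alpha ring subunit, gave 2765 in control and 1551 in GSK343-treated HepG2 cells, and 2047 and 1630 in A549. It was the lowest member in HepG2, 1.78-fold below control (-0.83), and was also lower in A549 (-0.33). It was measured by 1 probe, and both treated arrays lay below both control arrays. PSMD4, a ubiquitin receptor of the regulatory particle, gave 35029 and 22810 in HepG2 and 22994 and 40727 in A549. It was 1.54-fold below control in HepG2 (-0.62) and 1.77-fold above control in A549 (0.82), so that the treated HepG2 array and the A549 control array were almost equal. A spot that names PSMD4 together with PIPSL, a fusion pseudogene that carries PSMD4 sequence, gave 19366 and 22943 in HepG2 and 27749 and 20618 in A549. Its differences of 0.24 and -0.43 had the opposite sign in each line. PSMD3, a subunit of the lid of the regulatory particle, gave 1128 and 765 in HepG2 and 815 and 918 in A549. Its difference was -0.56 in HepG2, or -0.49 after median centring, under the size of interest, and 0.17 in A549.

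The largest differences above control in HepG2 were all under the size of interest. PSMB4, a beta ring subunit without a cutting site, gave 123842 and 155129 in HepG2 and 117215 and 133626 in A549 (0.32 and 0.19). Both treated arrays were brighter than both controls. The lid subunits PSMD13 and PSMD14, the latter a deubiquitinase that removes ubiquitin from substrates, were above control in HepG2 and below it in A549. PSMD13 gave 11807 and 14325 in HepG2 and 18465 and 15647 in A549 (0.28 and -0.24). PSMD14 gave 28525 and 33877 in HepG2 and 40641 and 30166 in A549 (0.25 and -0.43), and was the lowest member in A549. PSMB2, another beta ring subunit, was at 30633 and 34844 in HepG2 and 22305 and 24276 in A549 (0.19 and 0.12). In A549 the members next to PSMD4 at the upper end were PSMD9 (0.47), PSMD8 (0.45) and PSMC5 (0.44), and those next to PSMD14 at the lower end were PSMD1 (-0.36), PSME2 (-0.33) and PSMA6. PSMC5, an ATPase of the regulatory particle, gave 49397 and 37287 in HepG2 and 38787 and 52679 in A549. PSMD1, the scaffold of the base of the regulatory particle, gave 99075 and 110189 in HepG2 and 83467 and 65152 in A549. Both genes differed from control in opposite directions in the 2 lines, at -0.41 and 0.44 for PSMC5 and 0.15 and -0.36 for PSMD1.

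By class, the median differences in HepG2 and A549 were 0.08 and -0.13 for PSMA, 0.08 and 0.12 for PSMB, -0.16 and 0.11 for PSMC and -0.02 and -0.10 for PSMD. They were 0.08 and -0.14 for PSME and 0.02 and -0.05 for PSMG. The 3 constitutive cutting subunits lay between -0.07 and 0.12 in HepG2 and between -0.18 and 0.14 in A549. The 3 immunoproteasome subunits lay between -0.14 and 0.18 in HepG2 and between -0.28 and 0.26 in A549. The 4 beta ring subunits without a cutting site were above control in A549 by 0.12 to 0.19, and 3 of the 4 were above control in HepG2. Array centring moves such values, since setting each array to a common median shifted all HepG2 differences by 0.07 and all A549 differences by -0.12, so the sign of a difference of this size depends on the scaling.

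Across the 48 genes the differences in the 2 lines ran in opposite directions more often than in the same one. They had opposite signs in 35 genes (72.9%), of which 19 were above control in HepG2 and below it in A549 and 16 the reverse. Of the remaining genes, 7 were above control in both lines (PSMA3, PSMA8, PSMB1, PSMB2, PSMB4, PSMC4 and PSME1) and 6 below it in both (PSMA6, PSMC6, PSMD5, PSMD10, PSMD12 and PSMG1). Over all genes the share with opposite signs was 58.3%, and over the 8687 genes at or above the median on every array it was 65.9%. The correlation across the 48 genes was -0.48 (Pearson) and -0.54 (Spearman), against -0.06 and -0.18 over 18313 genes and -0.36 and -0.42 over the brighter genes. Without the 2 genes farthest from 0 in HepG2 the Pearson value was -0.60. These are values across genes of the same 4 arrays, which are not independent of each other, and the tendency was shared by bright genes in general.

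**Figure D2:**
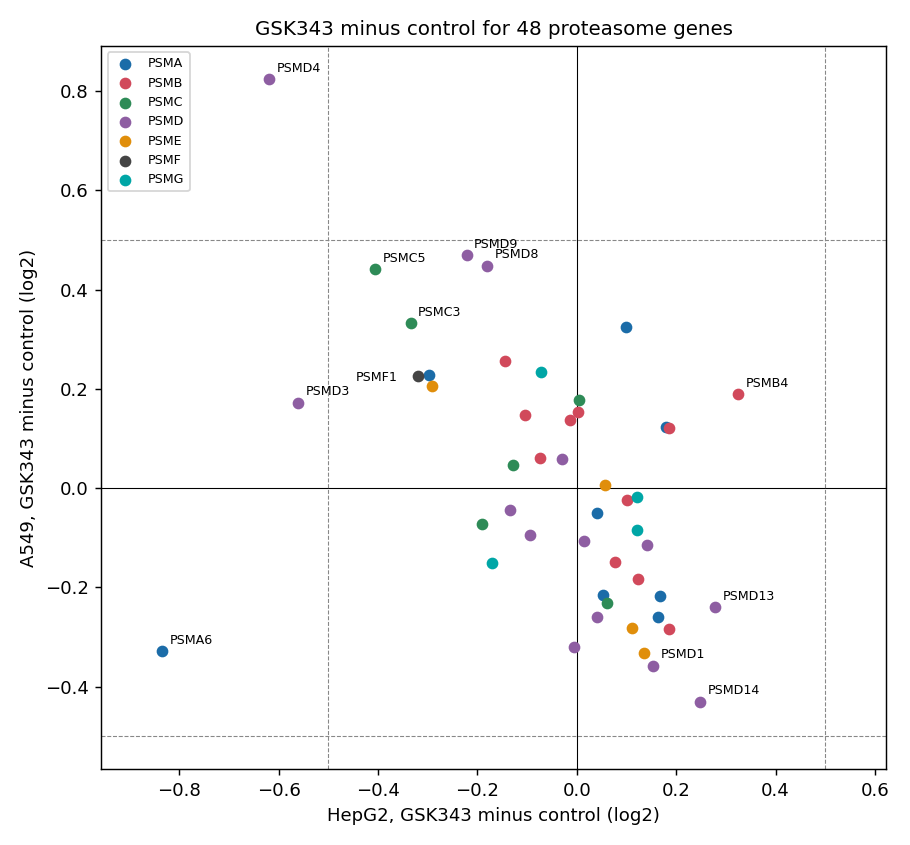
GSK343 minus control in HepG2 (x axis) and A549 (y axis), both in log2 units, 1 point per proteasome gene coloured by class, with dashed lines at 0.5 above and below 0. Most points lie in the upper left and lower right; PSMD4 is past 0.5 in opposite directions (-0.62 and 0.82), PSMA6 (-0.83) and PSMD3 (-0.56) are past it in HepG2.

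Within member genes measured by several probes the same opposition was seen, at a share between those of all genes and of bright genes. There were 17 such genes, 15 with 2 probes and 2 with 3 (PSMA2 and PSMC2). In 12 of the 17 (70.6%) the probe with the lowest difference in HepG2 was the one with the highest in A549, as in 63.1% of 5400 genes with several probes and 74.4% of 1986 genes with several probes at or above the median. Probes of a gene were over 0.5 apart in 3 members in HepG2 and in 8 in A549, a count not made for all genes. The spread between probes of a gene (SD) was 0.23 in HepG2 and 0.41 in A549 for members. Over all genes it was 0.39 and 0.42, and over probes at least as bright as the lower quartile of the members 0.21 and 0.31. The dimmer probe of PSMC3, an ATPase of the regulatory particle, gave 1505 and 882 in HepG2 and 586 and 1039 in A549 (-0.77 and 0.83). Its brighter probe gave 17499 and 18772 in HepG2 and 20968 and 18766 in A549 (0.10 and -0.16), so that the 2 probes disagreed in sign in both lines.

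The activator PSME4, known for its binding to the core particle in germ cells and at DNA damage, had 1 probe at 1267 and 851 in HepG2 and 336 and 586 in A549 (-0.57 and 0.80). The other gave 3617 and 3595 in HepG2 and 3035 and 2316 in A549 (-0.01 and -0.39). The 2 probes thus gave opposite answers in A549. The proteasome inhibitor PSMF1, which can bind the core particle in place of an activator, gave 6138 and 4515 in HepG2 and 3571 and 5619 in A549 on 1 probe (-0.44 and 0.65). On the other it gave 3819 and 3328 in HepG2 and 4009 and 3486 in A549 (-0.20 and -0.20). PSMG3, a chaperone of core particle assembly, was 0.75 above control in A549 on its dimmer probe and -0.29 on its brighter one. In A549 the gaps between probes were 0.74 for PSMA5, 0.69 for PSMC2, 0.63 for PSMB6 and 0.55 for PSMB8, and in HepG2 the gap for PSMA5 was 0.51. For PSMB1, by contrast, the 2 probes differed by 0.04 in HepG2 and 0.01 in A549.

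**Figure D3:**
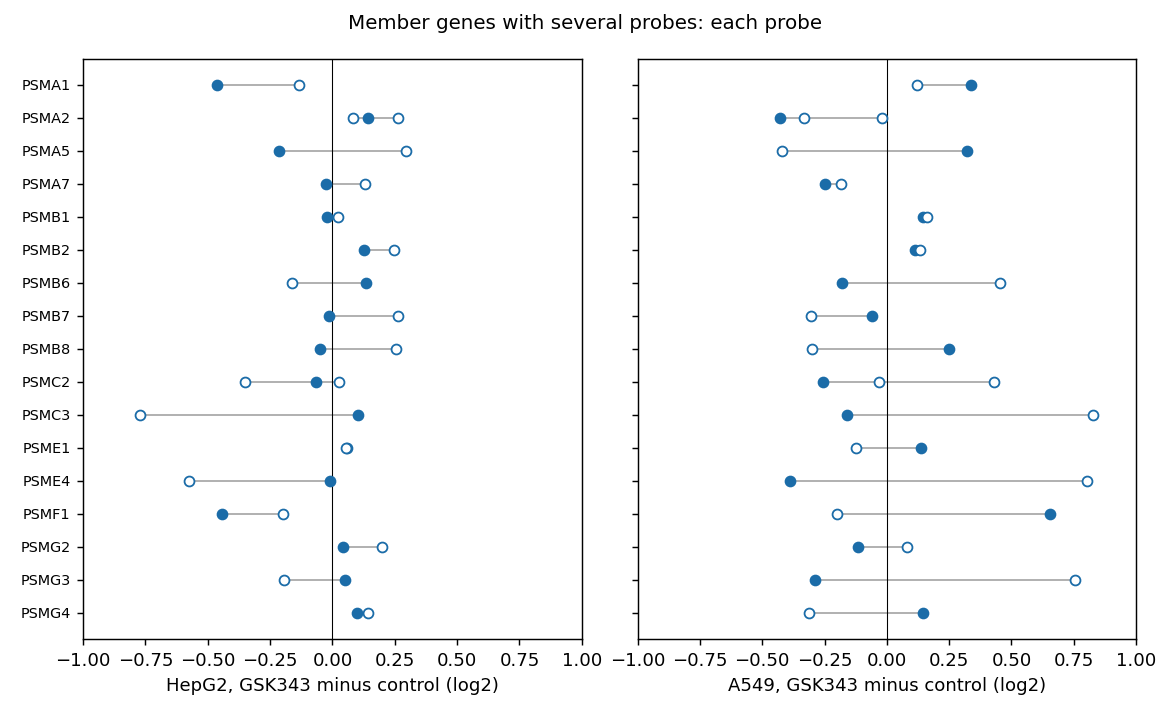
GSK343 minus control (log2 units) for each probe of the 17 proteasome genes with several probes, with HepG2 and A549 shown separately. Filled points are the brightest probe in control HepG2 and open points the others; the widest gaps are those of PSMC3 in HepG2 (0.87) and of PSME4 (1.19), PSMG3 (1.04) and PSMC3 (0.99) in A549.

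A limma fit over the 4 arrays, with cell line and GSK343 as terms, was the only test of the treatment that the design allows. Its error starts from the disagreement of the lines in each gene, with 1 residual degree of freedom. limma then draws this error toward the spread of genes of like brightness, with 5.86 prior degrees of freedom. The fit called 0 of 18313 genes higher (0%) and 0 of 18313 lower (0%) with GSK343 at an adjusted p under 0.05. Among members it called 0 of 48. At an unadjusted p under 0.05 it gave 713 genes, 1 of them a member. That member was PSMA6, with a limma coefficient of -0.58 (SE 0.21, unadjusted p = 0.0295, adjusted p = 0.9999).

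The lines differed more than the treatments. In the control arrays 4 members were at least 1 log2 unit higher in A549 and 3 were at least 1 lower. Over all genes 13.7% were higher and 13.0% lower by that size, and among the brighter genes 17.9% and 16.2%, beside 4 of 45 and 3 of 45 members. The median member difference was -0.01, with -0.07 over all genes, and the range was -1.39 to 1.68. The GSK343-treated arrays gave a second pair that shares no array with the controls, with a median of 0.07 and a range of -1.25 to 2.04. In both pairs 3 members were at least 1 higher in A549 (PSMB9, PSMC4 and PSMD8) and 2 were at least 1 lower (PSMB5 and PSME1), against 11.2% and 8.92% of all genes. The line difference had the same sign in both pairs in 37 of 48 genes, and the share of all genes for this was not counted. The 2 pairs correlated at 0.80 (Pearson) across members, below the 0.94 across all genes. Across the genes at or above the median on every array the value was 0.89.

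In the limma fit 8 of 48 members were higher and 5 of 48 lower in A549, against 20.6% and 18.2% of all genes. The spread here starts from the disagreement between the 2 array pairs, with 1 residual degree of freedom, drawn toward the spread of other genes as above. It is not a spread between replicate cultures. The calls fell in 4 classes. All 4 activators were called, as were the 3 assembly chaperones of the regulatory particle, 4 of 11 PSMB genes, 1 of 6 ATPases and 1 of 8 lid subunits, but 0 of 8 PSMA and 0 of 4 PSMG genes. The share of members called was below the share of all genes in each direction.

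Promoters are shown for 3 genes that differed between the lines on both array pairs, namely a constitutive cutting subunit, an immunoproteasome subunit and an activator. They are the 250 bases before the RefSeq gene start (GRCh38.p14), with motif matches in capitals.
PSMB5: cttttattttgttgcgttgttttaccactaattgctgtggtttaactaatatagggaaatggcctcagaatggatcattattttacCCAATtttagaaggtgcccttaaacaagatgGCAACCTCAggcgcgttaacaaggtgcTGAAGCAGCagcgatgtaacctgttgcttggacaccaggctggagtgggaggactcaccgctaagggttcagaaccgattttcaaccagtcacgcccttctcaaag
PSMB9: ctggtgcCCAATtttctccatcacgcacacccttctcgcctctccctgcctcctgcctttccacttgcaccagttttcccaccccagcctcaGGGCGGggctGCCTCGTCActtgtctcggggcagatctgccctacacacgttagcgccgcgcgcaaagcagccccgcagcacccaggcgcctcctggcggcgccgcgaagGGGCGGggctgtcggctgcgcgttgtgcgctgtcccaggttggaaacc
PSME1: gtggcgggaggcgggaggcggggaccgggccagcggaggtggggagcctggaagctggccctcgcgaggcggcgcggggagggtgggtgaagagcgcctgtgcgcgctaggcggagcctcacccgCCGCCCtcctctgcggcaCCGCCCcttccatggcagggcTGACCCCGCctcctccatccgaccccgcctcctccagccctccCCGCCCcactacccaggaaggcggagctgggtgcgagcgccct
The windows are chr14:23035221-23035470 (minus strand) for PSMB5, chr6:32853942-32854191 (plus strand) for PSMB9 and chr14:24135944-24136193 (plus strand) for PSME1, with GC contents of 45.2%, 67.2% and 76.8%. Motifs were searched on both strands: the core of the antioxidant response element TGANNNNGC, through which NFE2L1 drives proteasome genes after proteasome inhibition, the CCAAT box CCAAT, the interferon-stimulated response element, searched as GAAA, any 2 bases and GAAA again, and the SP1-type GC box GGGCGG. PSMB5, which was lower in A549, holds the TGANNNNGC core at -133 to -125 and at -106 to -98 from the start and a CCAAT box at -164 to -160. PSMB9, which was higher in A549, holds 1 such core at -148 to -140, a CCAAT box at -243 to -239 and GC boxes at -158 to -153 and -48 to -43. PSME1, lower in A549, holds 1 core at -86 to -78 and 3 GC boxes. None of the 3 windows holds the interferon element, and no matches overlap. Promoters matched 42 of the 48 members, and PSMA7, PSMB1, PSMB6, PSMB7, PSMD4 and PSMG3 had none. The TGANNNNGC core was found in 23 of the 42 (54.8%) and in 35.4% of all 27305 promoter windows, CCAAT in 18 (42.9%) and 33.0%, the interferon element in 5 (11.9%) and 3.07%, and GGGCGG in 26 (61.9%) and 42.3%. A match describes the letters and is not a measured site.

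PSMB5, the subunit with the chymotrypsin-like cutting site, gave 190099 and 180671 on the HepG2 arrays and 72607 and 75753 on the A549 arrays. Both A549 arrays lay below both HepG2 arrays, 2.62-fold in the controls and 2.39-fold after GSK343, and the limma difference was -1.32 (SE 0.17, adjusted p = 0.00097). PSMB6 and PSMB7, the other constitutive cutting subunits, did not share it. PSMB6 was at 84443 and 83634 in HepG2 and 96529 and 106104 in A549, and PSMB7 at 52123 and 56788 in HepG2 and 60447 and 53246 in A549. Neither was called by limma.

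Of the immunoproteasome subunits, PSMB9 gave 2323 and 2640 in HepG2 and 7436 and 6111 in A549. It was 3.20-fold higher in A549 in the controls and 2.31-fold after GSK343, with a limma difference of 1.44 (SE 0.21, adjusted p = 0.00174), and the lines did not overlap. PSMB10 gave 384 and 347 in HepG2, below the array medians, and 585 and 699 in A549, above them. Its limma difference was 0.81 (SE 0.19, adjusted p = 0.0131). PSMB8 was at 2007 and 2152 in HepG2 and 1718 and 1689 in A549, a limma difference of -0.29 (adjusted p = 0.280). The immunoproteasome subunits thus did not move together between the lines. Set against the constitutive subunit each replaces, the line difference in the control and treated pairs was greater by 1.49 and 0.87 for PSMB9 over PSMB6. It was greater by 0.40 and 1.10 for PSMB10 over PSMB7 and by 1.16 and 0.90 for PSMB8 over PSMB5. PSMB8 itself was lower in A549 (-0.22 and -0.35), and PSMB5 was lower still (-1.39 and -1.25). In the control pair the 2 probes of PSMB7 gave -0.17 and 0.60 and those of PSMB6 gave -0.01 and 0.40.

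Among the activators, PSME1 and PSME2 form the interferon-inducible ring that opens the core particle. PSME1 gave 25769 and 26802 in HepG2 and 11365 and 11412 in A549, 2.27-fold lower in the control pair and 2.35-fold in the treated pair, with a limma difference of -1.21 (SE 0.19, adjusted p = 0.00251). Its 2 probes each gave -1.18 in the controls. PSME2 gave 73054 and 80191 in HepG2 and 43044 and 34215 in A549, with a limma difference of -0.996 (SE 0.20, adjusted p = 0.00756). Both lay lower on each A549 array than on each HepG2 array. PSME3, the nuclear activator, went the other way, at 1138 and 1229 in HepG2 and 2606 and 2143 in A549 (limma difference 0.999, SE 0.20, adjusted p = 0.00736). PSME4 gave 2141 and 1749 in HepG2 and 1010 and 1165 in A549 as the mean of its probes (limma difference -0.84, SE 0.21, adjusted p = 0.0177), but its probes gave -1.92 and -0.25 in the controls. The inhibitor PSMF1 was at 4841 and 3877 in HepG2 and 3784 and 4425 in A549, where the groups overlapped.

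In the regulatory particle, the lid subunit PSMD8 gave 12420 and 10961 in HepG2 and 33034 and 45070 in A549. It was 2.66-fold higher in A549 in the controls and 4.11-fold after GSK343, and had the lowest adjusted p of the members (limma difference 1.73, SE 0.23, adjusted p = 0.000944). PSMC4, an ATPase, gave 16422 and 16465 in HepG2 and 32961 and 37267 in A549, with a limma difference of 1.09 (SE 0.19, adjusted p = 0.00401). Neither gene overlapped between the lines. The other ATPases lay between -0.55 and 0.67 in the controls, and PSMC3 gave -1.36 and 0.26 on its 2 probes.

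PSMD5, PSMD9 and PSMD10 help to assemble the ATPase ring and are absent from the finished particle. PSMD5 gave 6291 and 5731 in HepG2 and 11553 and 11206 in A549 (limma difference 0.92, adjusted p = 0.00932). PSMD10 gave 9073 and 8493 in HepG2 and 13933 and 13043 in A549 (limma difference 0.62, adjusted p = 0.043, and 0.101 at the highest of 5 other settings). All 3 were higher on each A549 array than on each HepG2 array. The share of all genes that separate the lines in this way was not counted, for these or for the other members without overlap. By limma, 20.6% of all genes were higher in A549. PSMD9 gave 86.8 and 74.4 in HepG2 and 160 and 222 in A549 (limma difference 1.23, adjusted p = 0.00414), with every value below the array median. The assembly factors of the core particle, PSMG1 to PSMG4, lay between -0.14 and 0.22 in the controls as means over probes. The 2 probes of PSMG4 gave -0.58 and 0.44 there, and those of PSMG3 -0.12 and 0.56. PSMA1, of the alpha ring, was split likewise, at -0.49 and 0.26. In all, 8 of the 17 genes with several probes had probes of opposite sign in the control pair and 3 in the treated pair. The share of all genes for this was not counted. The spread between probes of a gene (SD) in the control and treated pairs was 0.51 and 0.27 for members. Over all genes it was 0.92 and 0.82, and over probes at least as bright as the lower quartile of the members 0.44 and 0.35.

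In the core particle, PSMB1, a beta ring subunit without a cutting site, gave 63062 and 63154 in HepG2 and 32252 and 35860 in A549. It was 1.96-fold lower in A549 in the controls and 1.76-fold after GSK343, its limma difference was -0.89 (SE 0.19, adjusted p = 0.00844), and its probes gave -0.99 and -0.95 in the controls. PSMB1 and PSME1 were the only 2 of the 17 member genes with several probes in which all probes differed by 0.5 or more in the same direction on both array pairs. How many of all genes do so was not counted. The alpha ring genes lay between -0.43 and 0.75 in the controls, the highest being PSMA4, at 119638 and 134371 in HepG2 and 201050 and 172982 in A549 (limma adjusted p = 0.0501).

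**Figure D4:**
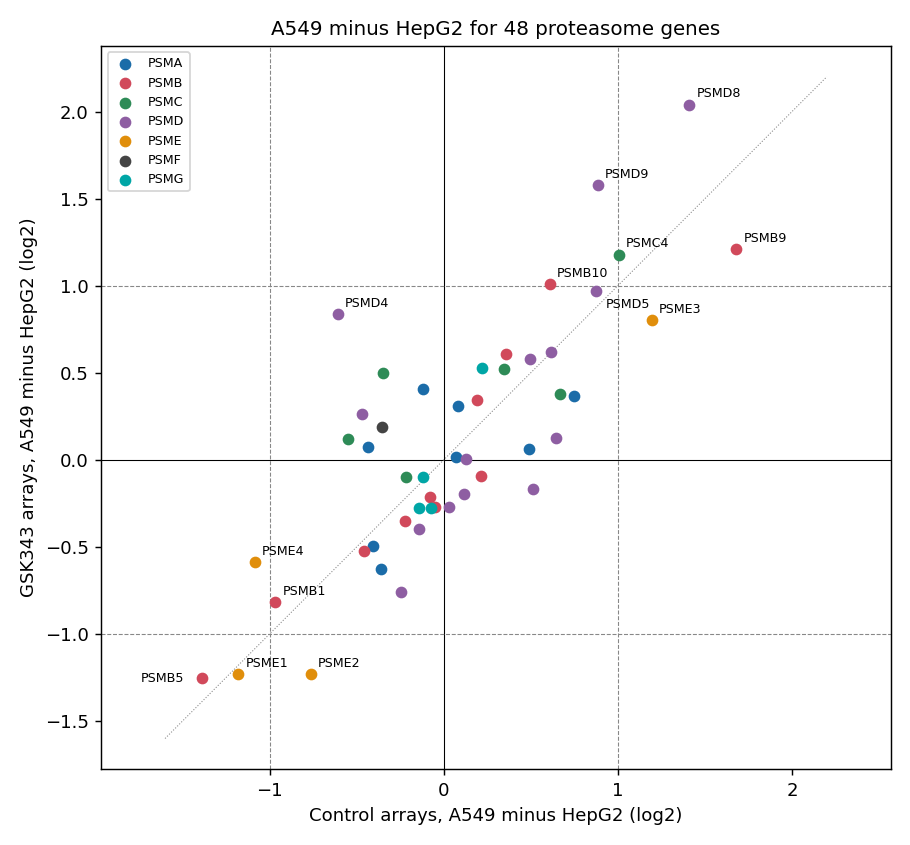
A549 minus HepG2 (log2 units) in the control arrays (x axis) and in the GSK343-treated arrays (y axis), 1 point per proteasome gene coloured by class, with dashed lines at 1 above and below 0 and a dotted line of equal values. PSMB9 (1.68 and 1.21), PSMD8 (1.41 and 2.04) and PSMC4 (1.01 and 1.18) are past 1 in both pairs and PSMB5 (-1.39 and -1.25) and PSME1 (-1.18 and -1.23) past -1, while PSMD4 changes sign (-0.61 and 0.84).

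Genes around the proteasome were read from lists of its other subunits and partners (16 of 19 listed genes with their own probe), of the control of proteasome gene transcription (13 of 13), of ubiquitin and its activation (8 of 14) and of antigen processing (9 of 12). Their counts stand beside the same shares of all genes as above, which after GSK343 were 3.03% above and 7.22% below control for HepG2, 7.83% above and 4.24% below for A549, and 13.7% and 13.0% between the control arrays of the lines. With GSK343, 0 of the 16 partners differed by 0.5 or more in HepG2, and 1 was higher in A549, the lid subunit SHFM1, at 22288 and 20184 in HepG2 and 23911 and 35045 in A549 (-0.14 and 0.55). POMP, the chaperone that closes core particle assembly, was at 9165 and 9754 in HepG2 and 12760 and 10905 in A549 (0.09 and -0.23). Of the transcription list, 1 gene was lower in HepG2 and 0 were higher. In A549 there were 2 above control and 2 below it by this size. MAFG, a small partner of NFE2L1 and NFE2L2, was in both counts, at 997 and 647 in HepG2 and 592 and 987 in A549 (-0.62 and 0.74), the same opposed form as PSMD4.

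NFE2L1, which drives proteasome genes when proteasomes are inhibited, gave 9616 and 10893 in HepG2 and 16393 and 14404 in A549, differences of 0.18 and -0.19 with GSK343. NFE2L2, the factor of the antioxidant response, gave 54227 and 52429 in HepG2 and 25005 and 22814 in A549. It was lower in A549 by 1.12 and 1.20 log2 units in the 2 pairs and differed by -0.05 and -0.13 with GSK343. Both factors thus differed more between the lines than with the treatment. Of the ubiquitin list, 0 differed by 0.5 or more in HepG2 and 1 was higher in A549, the activating enzyme UBA1, at 5252 and 4583 in HepG2 and 5391 and 8636 in A549 (-0.20 and 0.68).

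Of the antigen processing list, with GSK343, NLRC5 was above and HLA-C below control in HepG2 (0.61 and -0.84), and 1 gene, IRF1, was lower in A549 (-0.55). In the control arrays 1 was higher in A549, the interferon response factor IRF1, at 633 and 584 in HepG2 and 1745 and 1192 in A549, and 2 were lower, ERAP2 (-1.89) and HLA-C (-1.37). TAP1, the peptide transporter whose start lies 488 bases from that of PSMB9 on the opposite strand, gave 15775 and 16840 in HepG2 and 19127 and 15840 in A549. Its line difference was 0.28 in the controls and -0.09 after GSK343, while that of PSMB9 was 1.68 and 1.21.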

How the data were processed

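The authors deposited 1 table of linear Cy5 intensity for 31741 spots on 4 arrays. The scanner, background correction and normalization are not given in the sources used here, so they could not be repeated, and the depth of such arrays is limited by their number. Probes were named through the platform annotation, 24740 spots naming 1 gene, 977 several and 6024 none. Values of 0 or less (41 to 91 spots an array) were left out. Intensities were used unscaled as log2, and a gene was the mean over its probes. Sizes of 0.5 (GSK343) and 1 (line) were read beside the share of all genes. limma 3.58.1 in R 4.3.3 (lmFit, eBayes with trend) was fitted to all 4 arrays with line and GSK343 as terms, with Benjamini-Hochberg adjustment over 18313 genes. The fit was tried on simulated data with independent noise, which lacks the opposed differences that many genes share on these arrays. Nothing in the labels says that the arrays are separate experiments, so p-values measure only the spread between these arrays. Named were the cutting, immunoproteasome and activator genes, PSMF1 and the 4 highest and 4 lowest members of each comparison. Genes whose probes disagreed by over 0.5 in a GSK343 comparison were named as well. Others called by limma, and PSMA1, PSMA4 and PSMG4, were added after their values were seen. Members and lists were chosen with earlier results of these data known. Alternatives were median centring, quantile normalization, an offset of 50, bright probes only, the brightest probe, other sizes and other limma terms. Promoter sequences were from RefSeq (GRCh38.p14). Python 3.11.15, numpy 2.4.6, pandas 2.3.3 and matplotlib 3.10.9 were used.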

Additional observations from a re-analysis of the deposited data

Results flagged for a closer look

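In the unscaled values PSMD4 was the only member gene past 0.5 log2 units in opposite directions in the 2 lines. With quantile normalization PSMC5 was so too, at -0.51 in HepG2 and 0.55 in A549. On single probes, the dimmer probes of PSMC3 (-0.77 and 0.83) and PSME4 (-0.57 and 0.80) had this form as well, and their brighter probes did not. How many of all genes have this form was not counted. For PSMD4 the GSK343 difference was -0.62 in HepG2 and 0.82 in A549, so the A549 difference exceeded that in HepG2 by 1.44. This difference between the lines was not tested, since each rests on 1 array against 1. It comes from 1 probe, and the spot that PSMD4 shares with PIPSL gave 0.24 and -0.43.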

How the results depend on the processing

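With 1 array for each condition no array could be left out of a comparison. With a size of 1 in place of 0.5, the 3 members lower in HepG2 became 0 and the 1 higher in A549 became 0. PSMD3 lost its HepG2 call under both scalings, at -0.49 with median centring, where 2 members were lower, and -0.496 with quantile normalization, where the count of 3 held PSMC5 (-0.51) in its place. The 1 member higher in A549 became 3 with quantile normalization and 2 with the brightest probe, and the 0 lower became 1 with median centring. With a size of 1.5 for the line difference of the controls, 4 higher became 1 and 3 lower became 0. Without the treatment term, limma called 13 members higher and 9 lower in A549, against 8 and 5. Of the 13 members called for the line, 12 were called in all 5 alternatives, the exception being PSMD10, and 9 others were called in at least 1, of which 7 only without the treatment term. For GSK343 limma called 0 members in every setting, without the cell line term too, although median centring called 23 genes higher and 46 lower, with a lowest adjusted p among members of 0.61. The spot shared with PIPSL reversed PSMD4, to 0.24 in HepG2 and -0.43 in A549, an alternative chosen after seeing the data, as was the treated pair for the line difference. With the brightest probe PSMF1 in A549 became 0.65 and PSME4 -0.39. The cause of these shifts was not tested. Without background or flag columns, a dim probe such as that of PSMD9 cannot be told from background.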

Other observations

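The list of proteotoxic stress genes, not all of whose products handle misfolded protein themselves, had 9 of 9 genes with a probe. In HepG2 0 of 9 differed from control by 0.5 log2 units or more after GSK343. In A549 3 were higher and 1 was lower. Over all genes 3.03% were higher and 7.22% lower by that size in HepG2, and 7.83% and 4.24% in A549. The autophagy receptor SQSTM1 gave 8899 and 10394 in HepG2 and 16594 and 27114 in A549, differences of 0.22 and 0.71. The heme oxygenase HMOX1 gave 5379 and 5007 in HepG2 and 2020 and 3186 in A549 (-0.10 and 0.66). HSPA1B, a heat shock chaperone, was at 26132 and 23608 in HepG2 and 17044 and 26688 in A549 (-0.15 and 0.65), while the near-identical HSPA1A gave 0.30 and -0.02. The heat shock factor HSF1 was lower in A549, from 17757 to 11377 (-0.64). These are single arrays without a test.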
